A study of Ambystoma mexicanum with 18 samples.

Results

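The effect of Tig1P155A, a form of the axolotl cell surface protein Tig1 with a mutated latexin domain, was measured in Hoxa13:mCherry+ blastema cells 8 days post electroporation (dpe). The comparison was defined by its libraries: the 3 libraries of Tig1P155A cells against the 3 libraries of control cells at 8 dpe, 6 of the 18 libraries of the series. It covered 25377 genes, those with 0.5 CPM (counts scaled to the size of the library) or more in 1 or more of the libraries, of 99126 gene models. Forelimbs of Hoxa13:mCherry transgenic axolotls, which report Hoxa13 expression as mCherry, were amputated, and the blastemas were electroporated 13 days later with a plasmid for Tig1 or Tig1P155A joined to GFP by a T2a sequence. At 3 or 8 dpe the epidermis was removed, cells of 12 pooled blastemas per condition were dissociated, and 300 sorted cells were used for each SMARTseq2 library. Tig1P155A and Tig1 cells were mCherry+/GFP+ and control cells were mCherry+/GFP−, so that all groups came from the same transgenic line and sort on mCherry. Control cells had thus not taken up, or no longer showed, the plasmid. The 18 libraries of the series hold no control that received GFP without a form of Tig1. Uptake of a plasmid, GFP and the form of Tig1 thus cannot be told apart in any comparison with control cells. Electroporation is not restricted to a cell type. The study's methods call the libraries of a condition biological replicates and do not say how pools of blastemas were divided among them, so the p-values measure the spread between these libraries.

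Limb blastemas rebuild the missing segments in order along the proximo-distal axis, and their connective tissue cells carry the positional information for this. Hoxa13 and Hoxd13 mark cells with a hand identity, and the TALE homeobox factors Meis1 and Meis2 mark proximal cells. Prod1, a surface molecule in newts that lacks a membrane anchor in the axolotl, is higher in proximal than in distal blastema cells and is raised by retinoic acid. Tig1, also called Rarres1, is a retinoic acid responsive membrane protein with an extracellular latexin-like domain, and Tig1P155A carries alanine in place of a conserved proline of that domain. Comparing Tig1P155A with control cells asks how sorted mCherry+ cells that showed the plasmid of the mutated form differ from those that did not.

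At 8 dpe the total counts lay between 15492743 and 21882340 in control and between 13637656 and 22482622 in Tig1P155A libraries. A count of 0 allowed up to 0.0983 to 0.344 CPM in a library (3 counts, counting error only). Tig1P155A replicate 1 stood apart: mitochondrial genes took 63.2% of its counts, against 21.8% and 29.3% in the other Tig1P155A libraries and 25.6% to 45.3% in controls. The same library held 1477 CPM of 13 muscle genes in sum, against 35.1 and 45.3 CPM in Tig1P155A replicates 2 and 3 and 14.1 to 42.3 CPM in controls. It also held 1343 CPM of 14 epidermis genes, against 307 to 494 CPM in the other Tig1P155A and 1097 to 1300 CPM in control libraries. Results that rest on this library are therefore also given without it. Markers of limb connective tissue (7 genes tested, Prrx1, Twist1, Col1a1, Col1a2, Col3a1, Lum and Dcn) summed to 7085 to 11260 CPM in control and to 2039 to 2471 CPM in Tig1P155A cells. Most of this sum came from the collagen chains: Col3a1 averaged 2252 CPM over the 6 libraries, Prrx1 12.3 CPM and Twist1 22.0 CPM. Of the 7, Col3a1 alone was called lower. Markers of myeloid cells (28 genes tested) summed to 54.7 to 69.4 CPM in control and to 5254 to 6716 CPM in Tig1P155A cells, without overlap. In these bulk libraries fewer cells of a type and less RNA per cell cannot be told apart. Of 8 lymphocyte genes tested, Lck, Cd79b and Pax5 had no count in either group. Of 14 endothelial genes Kdr, Flt1, Tie1 and Plvap had none in Tig1P155A cells. Over the 3 control libraries they had 13, 21, 1 and 194 counts, and they were not called. The endothelial sums overlapped, at 53.9 to 117 CPM in control and 76.9 to 126 CPM in Tig1P155A cells. Robo4, the 1 member called higher, held much of the Tig1P155A sums (39.7 CPM on average over the 6 libraries, log2 fold change 6.64). The median log2 fold change of the list was −1.70, and 4 of the 14 genes lay below every control library, against 17% of all genes.

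**Figure D1:**
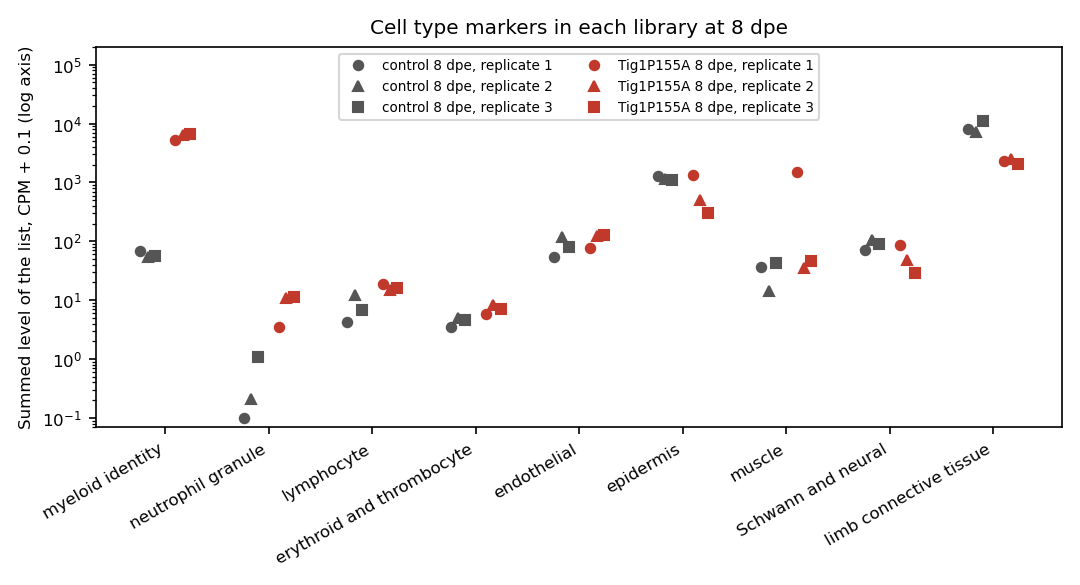
Summed level (CPM + 0.1, log axis) of each list of cell type markers in the 3 control and 3 Tig1P155A libraries at 8 dpe, 1 point per library. Myeloid markers lie at 5254 to 6716 CPM in Tig1P155A and 54.7 to 69.4 CPM in control libraries, connective tissue markers are lower in all Tig1P155A libraries, and muscle markers stand out in Tig1P155A replicate 1 alone.

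The overexpressed gene was checked first. Tig1 (LOC115479139 in the annotation, AMEX60DD001823, plus strand of chromosome 10p from 881792072 to 881958443 in AmexG_v6.0-DD) had 8.19, 3.85 and 7.05 CPM in control cells and 151, 301 and 294 CPM with Tig1P155A. All 3 Tig1P155A libraries lay far above every control (log2 fold change 5.28, SE 0.52, adjusted p = 8.11e-07). Its level in Tig1 cells at 8 dpe was 175, 343 and 294 CPM, in the same range. Counts per gene do not separate plasmid transcripts from those of the cells' own gene, or the mutated from the wild-type form. Hoxa13 itself, whose reporter was used for the sort, had 82.9, 85.1 and 80.6 CPM in control cells and 29.6, 40.4 and 18.5 CPM with Tig1P155A, and the groups did not overlap. That difference did not pass the test (log2 fold change −1.49, SE 0.58, adjusted p = 0.109).

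Tig1P155A and control cells at 8 dpe differed in 3135 of the 25377 genes, 12.4% of those tested (edgeR's quasi-likelihood test, Benjamini-Hochberg adjusted p under 0.05). Of these genes, 2698 rose (10.6% of those tested) and 437 fell (1.72%), so that 86.1% of the called genes were higher in Tig1P155A cells. Among the 11563 genes of at least 4 CPM, 17.8% rose and 3.29% fell. The rises were also larger. Their median log2 fold change was 3.56 with an upper quartile of 6.14, and 1233 genes (45.7%) rose at least 16-fold. The median fall was −1.86, and 47 genes (10.8%) fell at least 16-fold. Levels did not overlap between the 3 and the 3 libraries for 4422 genes that were higher (17.4% of those tested) and 4316 that were lower (17%), and among the called genes this held for 2642 of the 2698 rises and 435 of the 437 falls. Of the 11563 genes of at least 4 CPM, 2921 were higher and 2659 lower without overlap. That level was reached by 37 of 45 limb transcription factors, 23 of 29 collagens, 43 of 52 other matrix genes and 40 of 41 DNA replication genes. For such lists these genes are the closer background. Control cells had no count at all for 255 of the genes that rose, and Tig1P155A cells had none for 23 of those that fell. The split depended on the fit: 70.4% of the calls were higher with DESeq2 (3171 higher, 1332 lower), 69.8% with only these 6 libraries fitted (2776 and 1201) and 75.8% with every gene with at least 1 count tested (3115 and 996). Without the divergent Tig1P155A replicate 1, 2546 genes rose and 190 fell, and leaving out any other library of the 6 left between 129 and 239 falls.

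**Figure D2:**
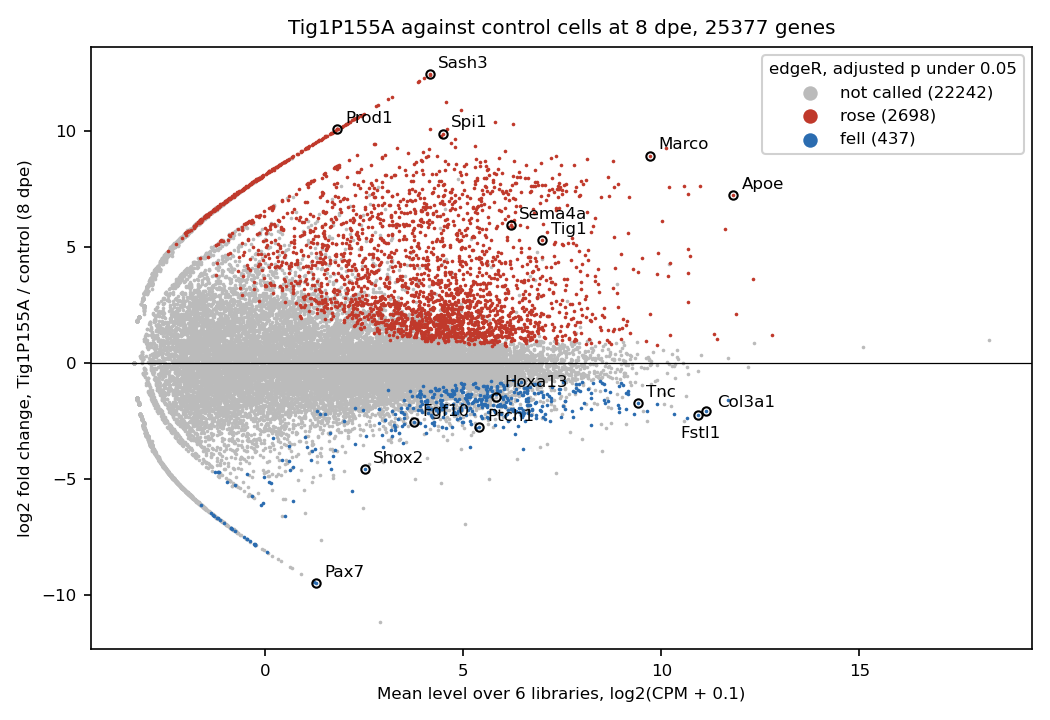
Fold change of each of 25377 genes (log2, Tig1P155A over control at 8 dpe) against its mean level over the 6 libraries, log2(CPM + 0.1). The 2698 genes that rose reach a log2 fold change of 12.42 and the 437 that fell reach −9.49, and the curved upper edge holds genes with no count in control cells, whose fitted values are no measured folds.

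Among proximal identity genes, the only gene that rose was Prod1 (AMEX60DD028208, minus strand of chromosome 3p from 722854759 to 722913067), a marker of proximal blastema cells. Control cells gave 0 counts, against 2.87, 9.1 and 8.53 CPM in Tig1P155A cells, at least 197-fold higher against 3 counts over the control group (adjusted p = 6.92e-05). Tig1 cells held it at 7.76, 9.9 and 2.43 CPM. At 3 dpe Prod1 had stood at 85.5, 61.1 and 35.8 CPM in Tig1P155A cells and at 1.91, 0.232 and 4.71 CPM in controls. Meis1, a proximal homeobox factor, had 0.164, 0.879 and 0.259 CPM in control cells and 5.5, 0.316 and 0.499 CPM with Tig1P155A, overlapping between the groups, and was not called (log2 fold change 2.26, SE 1.34, adjusted p = 0.315), while Meis2 lay at 0.459, 0.714 and 0.0369 CPM in controls and 1.61, 0.789 and 0 CPM with Tig1P155A (adjusted p = 0.797). For both factors the highest value was that of Tig1P155A replicate 1. Of the 11 proximal genes tested, 1 rose (9.09%, against 10.6% of all genes) and 2 fell (18.2%, against 1.72%), with a median log2 fold change of −0.14 beside 0.00 over all genes tested. Those that fell were the homeobox gene Shox2, needed for the proximal limb segment in mice, and the T-box gene Tbx15. Shox2 had 7.47, 11.3 and 13.3 CPM in control cells and 1.03, 0.21 and 0.192 CPM with Tig1P155A, lower in each Tig1P155A library than in any control (log2 fold change −4.58, SE 1.01, adjusted p = 0.00451), and Tbx15 had 12.8, 16.6 and 25.2 CPM in controls and 1.95, 3.73 and 1.08 CPM with Tig1P155A (log2 fold change −3.01, SE 0.83, adjusted p = 0.02). The call of Tbx15 was lost without Tig1P155A replicates 1 or 3 or control replicate 3 (adjusted p = 0.0677 to 0.0894).

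HoxA and HoxD genes, which set segment identity in the limb, gave 12 tested members. Of these 0 rose and 1 fell, Hoxd8 (8.33%, against 1.72% of all genes), with a median of −1.33. The call of Hoxd8 (adjusted p = 0.0453) was lost whichever of the 6 libraries was left out, so that the list then held 0 calls. Levels lay below all controls in 7 of the 12, against 17% of all genes. Hoxd13, the partner of Hoxa13 in the hand, had 71.5, 72.7 and 60.5 CPM in control and 7.8, 30.6 and 19.5 CPM in Tig1P155A cells (adjusted p = 0.233). Hoxa11, a marker of the forearm, was low, at 1.54, 1.81 and 1.37 CPM in controls and 0.229, 1.16 and 0.231 CPM with Tig1P155A (adjusted p = 0.454). At 3 dpe 6 of the 12 had fallen, against 11.5% of all genes, among them Hoxa13 (log2 fold change −3.77, SE 0.63, adjusted p = 0.000183). The difference between 8 and 3 dpe was called for 0 of the 12, with 2 at an unadjusted p under 0.05 (Hoxa13 adjusted p = 0.386).

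**Figure D3:**
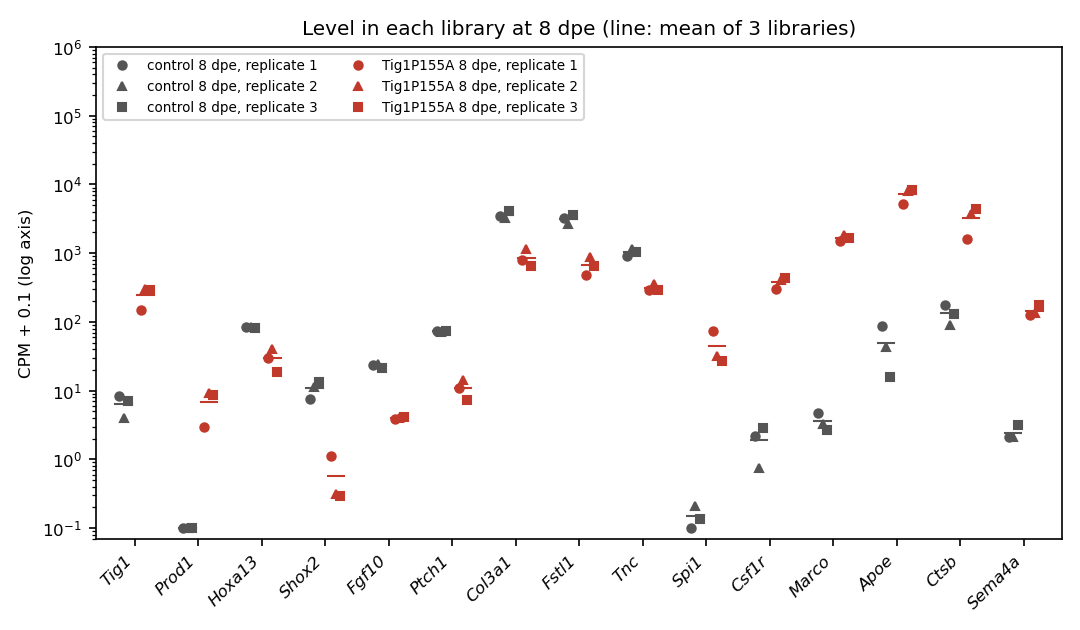
Level of 15 genes (CPM + 0.1, log axis) in each of the 3 control and 3 Tig1P155A libraries at 8 dpe, with the mean of each group as a line. Tig1, Prod1 and the genes from Spi1 to Sema4a are higher in all Tig1P155A libraries, and Hoxa13, Shox2, Fgf10, Ptch1, Col3a1, Fstl1 and Tnc are lower in all of them.

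Transcription factors of the limb mesenchyme were mostly lower. Of 45 tested, 5 fell (Sall3, Lmx1b, Sox5, Tbx5 and Tcf7l2), 11.1% against 1.72% of all genes, and 2 rose, 4.44% against 10.6%. Levels lay below every control library in 30, against 17% of all genes and 2659 of the 11563 genes of at least 4 CPM. The median log2 fold change was −1.64. The falls numbered 3, 4 and 2 without Tig1P155A replicates 1, 2 and 3, and 4, 3 and 3 without control replicates 1, 2 and 3. Sall3, a zinc finger factor of the limb bud, had 16.7, 15.7 and 10.8 CPM in control cells and 0.917, 1.58 and 0.96 CPM with Tig1P155A (log2 fold change −3.62, SE 0.98, adjusted p = 0.017). Its call was lost without Tig1P155A replicates 1 or 3 (adjusted p = 0.0629 to 0.0761). Lhx2, a LIM homeobox factor of the limb bud, had 70.1, 62.02 and 47.1 CPM in controls and 7.8, 18.8 and 18.02 CPM with Tig1P155A, without overlap, yet was not called (adjusted p = 0.15). Prrx1, the general marker of limb mesenchyme, stood at 9.96, 19.4 and 22.7 CPM in controls and 9.75, 7.05 and 5.07 CPM with Tig1P155A (adjusted p = 0.143). The 2 factors that rose were Runx3 and Zeb2. Runx3, which acts in cartilage and also in blood cells, rose from 2.52, 2.09 and 3.25 CPM to 56.3, 71.5 and 135 CPM (log2 fold change 5.06, SE 0.52, adjusted p = 1.3e-06), and Zeb2, which acts in mesenchyme and also in macrophages, rose from 3.5, 2.09 and 6.32 CPM to 45.98, 59.1 and 49.3 CPM (log2 fold change 3.69, SE 0.40, adjusted p = 2.37e-06). The falls stood beside the lower connective tissue markers and the rises beside the higher myeloid markers of the same libraries, and the part of either was not tested.

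Some signalling genes of the outgrowing limb fell. Falls in the Hedgehog, FGF, BMP, Wnt and retinoic acid lists were measured in libraries with lower connective tissue markers, whose part was not tested. In the Hedgehog pathway 3 of 13 genes fell, 23.1% against 1.72% of all genes, the ligand Shh, its receptor Ptch1, which is also a target of the pathway, and the co-receptor Cdon. Ptch1 had 73.5, 71.7 and 73.7 CPM in control cells and 10.9, 14.04 and 7.26 CPM with Tig1P155A, a tight and non-overlapping pair of groups (log2 fold change −2.77, SE 0.65, adjusted p = 0.00592). Cdon had 54.3, 55.5 and 98.98 CPM in controls and 23.05, 23.7 and 14.5 CPM with Tig1P155A (log2 fold change −1.77, SE 0.41, adjusted p = 0.00585). Both calls held with each library left out. Shh, the ligand of the posterior limb margin, was uneven even among controls, at 5.63, 1.92 and 0.111 CPM, and had 1 count in all Tig1P155A libraries together, 149-fold lower (95% counting interval 26.4 to 5909). Its call (adjusted p = 0.0337) was lost without Tig1P155A replicates 1, 2 or 3 or control replicates 1 or 2 (adjusted p = 0.051 to 0.139).

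The FGF pathway had 2 falls (9.52%, against 1.72% of all genes) and 1 rise (4.76%, against 10.6%) among 21 genes. Fgf10, the mesenchymal ligand that keeps limb outgrowth going, fell from 23.3, 24.4 and 21.2 CPM to 3.78, 3.89 and 4.03 CPM (log2 fold change −2.56, SE 0.65, adjusted p = 0.0116), a narrow spread in both groups, although the call was lost without Tig1P155A replicates 2 or 3 (adjusted p = 0.0534 to 0.0574). Fgfr1, a receptor for FGF ligands, fell from 134, 147 and 212 CPM to 31.3, 41.9 and 42.6 CPM (adjusted p = 0.018), a call lost without Tig1P155A replicates 1, 2 or 3 or control replicate 3 (adjusted p = 0.0597 to 0.0749). Spred1, an inhibitor of the pathway, rose from 49.03, 49.4 and 55.5 CPM to 238, 317 and 325 CPM (log2 fold change 2.51, SE 0.28, adjusted p = 3.71e-06). In the BMP pathway 3 of 24 fell (12.5%) and 1 rose (4.17%), and 0 to 2 fell with 1 library left out. The ligand Bmp7 went from 19.2, 13.3 and 17.6 CPM to 2.87, 2.74 and 1.23 CPM (log2 fold change −2.88, SE 0.85, adjusted p = 0.0308), and its call was lost whichever of the 6 libraries was left out (adjusted p = 0.0534 to 0.13). The receptors Bmpr1b and Bmpr1a fell as well, with log2 fold changes of −2.39 and −1.84 (adjusted p = 0.0209 and 0.0159). Those calls were lost without Tig1P155A replicates 2 or 3 or control replicates 2 or 3 (adjusted p = 0.0569 to 0.0987) and without Tig1P155A replicates 2 or 3 (adjusted p = 0.0661 to 0.0675), respectively. Bmp6, a ligand also made by macrophages, rose from 1 count in the control group, 176-fold (95% counting interval 31.1 to 7018).

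Of 41 Wnt pathway genes 5 fell (12.2%, against 1.72% of all genes), the receptors Ror2 and Fzd7, the effector Ctnnb1 and the secreted modulators Rspo2 and Sfrp1, and the ligand Wnt8b rose (2.44%, against 10.6%). The call of Ror2 (adjusted p = 0.0453) was lost whichever of the 6 libraries was left out (adjusted p = 0.084 to 0.153). The falls numbered 3 without Tig1P155A replicate 3 or control replicate 2 and 4 with any other library left out. Wnt5a, the main ligand of limb elongation, had 146, 162 and 162 CPM in controls and 52.9, 62.9 and 37.1 CPM in Tig1P155A cells and missed the threshold (log2 fold change −1.62, SE 0.56, adjusted p = 0.0665). Rspo2, which amplifies Wnt signals, fell from 52.3, 67.4 and 38.6 CPM to 3.21, 14.5 and 8.99 CPM (log2 fold change −2.55, SE 0.72, adjusted p = 0.0224) and lost its call without Tig1P155A replicates 1 or 3 or control replicate 2 (adjusted p = 0.0706 to 0.0969). Wnt8b had no count in controls and 8.14, 8.94 and 11.4 CPM in Tig1P155A cells, at least 252-fold higher. Retinoic acid genes, relevant because Tig1 and Prod1 respond to this proximalising signal, included 2 falls (15.4%) and 0 rises among 13. The binding protein Crabp2 fell from 268, 328 and 316 CPM to 60.5, 83.3 and 87.5 CPM (adjusted p = 0.0231), a call lost without Tig1P155A replicates 1, 2 or 3 or control replicates 2 or 3 (adjusted p = 0.0537 to 0.0934). The receptor Rarg (NR1B3B in the annotation) fell from 150.4, 156 and 214 CPM to 50.8, 54.3 and 50.8 CPM (adjusted p = 0.0121), a call lost without Tig1P155A replicates 2 or 3 or control replicate 3 (adjusted p = 0.0502 to 0.0609).

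Extracellular matrix genes formed the broadest set of falls. Among 29 collagen chains 7 fell (24.1%, against 1.72% of all genes), 0 rose and 22 lay below every control library (against 17% of all genes), with a median of −1.85 (−1.77 with the chain that had no count in Tig1P155A cells set at its bound). The falls numbered 4 without Tig1P155A replicate 2 or 3 or control replicate 3, 5 without control replicate 2 and 6 without Tig1P155A or control replicate 1. Col3a1, a fibrillar collagen of loose connective tissue, had 3488, 3281 and 4173 CPM in control cells and 790.5, 1134 and 647 CPM with Tig1P155A (log2 fold change −2.09, SE 0.48, adjusted p = 0.00484). Col5a2, which seeds fibrils, had 959, 849 and 1295 CPM in controls and 179, 242 and 243 CPM with Tig1P155A (log2 fold change −2.22, SE 0.52, adjusted p = 0.00582), and Col18a1, of basement membranes, had 109, 141 and 183 CPM in controls and 33.9, 27.8 and 27.8 CPM with Tig1P155A (log2 fold change −2.27, SE 0.55, adjusted p = 0.00837). These 3 calls held with each library left out. Col1a1, the most familiar fibrillar chain, had 1072, 1246 and 2692 CPM in controls and 657, 406 and 404 CPM with Tig1P155A and was not called (adjusted p = 0.0841), its control replicate 3 lying well above the others.

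Of 52 other matrix genes 16 fell (30.8%, against 1.72% of all genes) and 0 rose. Levels of 38 lay below every control, against 17% of all genes, and the median was −1.91. The genes that fell are broken down next. The falls included 9 glycoproteins, 3 proteoglycans and 4 enzymes or chaperones of collagen maturation. Tnc, a matrix glycoprotein abundant in blastemas, fell from 917, 1164 and 1038 CPM to 294, 355 and 293 CPM (log2 fold change −1.73, SE 0.53, adjusted p = 0.0397), a call lost whichever of the 6 libraries was left out (adjusted p = 0.0621 to 0.126). Fn1, fibronectin, had 68.9, 97.7 and 136 CPM in controls and 34.6, 28.7 and 19.4 CPM with Tig1P155A and missed the threshold (adjusted p = 0.0608). Cthrc1, a secreted protein of collagen-producing cells, fell from 341, 521 and 695 CPM to 49.2, 112 and 77.8 CPM (adjusted p = 0.0331), and lost its call without Tig1P155A replicates 1, 2 or 3 or control replicates 2 or 3 (adjusted p = 0.0595 to 0.129). Fstl1, a secreted glycoprotein of mesenchyme, is not a member of this list. It fell from 3225, 2692 and 3625 CPM to 485, 890.3 and 641 CPM (log2 fold change −2.24, SE 0.50, adjusted p = 0.00425), called with each library left out. The number of falls in the other matrix list depended on the libraries: it was 5 without Tig1P155A replicate 1, 9 and 6 without replicates 2 and 3, and 13, 11 and 9 without control replicates 1, 2 and 3. The connective tissue markers summed to 2039 to 2471 CPM in the same Tig1P155A libraries against 7085 to 11260 CPM in controls. Of these markers, Col1a1, Col1a2 and Col3a1 are also in the collagen list, and Lum and Dcn are in the other matrix list. The sum thus counts matrix genes again, and the part of cell makeup in the matrix falls was not tested.

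Proteases, adhesion and guidance genes moved in both directions. Mmp3 (MMP3/10B in the annotation), a stromelysin, had 3.996, 0 and 2.07 CPM in control cells and 195, 411 and 473 CPM with Tig1P155A (log2 fold change 7.44, SE 1.10, adjusted p = 6.65e-05), and Mmp9, a gelatinase of leukocytes and of early regeneration, rose from 0.557, 1.48 and 1.4 CPM to 65.2, 67.6 and 33.7 CPM (log2 fold change 5.6, SE 0.77, adjusted p = 2.95e-05). In all 5 of 27 genes of this list rose, 18.5%, near the 17.8% of genes of at least 4 CPM and above the 10.6% of all genes. The 2 that fell (7.41%, against 1.72% of all genes) were Mmp2 and Adam12. There was 1 fall without Tig1P155A replicate 1 or control replicate 3 and 0 without Tig1P155A replicate 3. Among syndecans, Sdc3 had 93.97, 115 and 120.1 CPM in control and 327, 396 and 305 CPM with Tig1P155A (log2 fold change 1.65, SE 0.27, adjusted p = 0.000219), a rise not called with library size alone (adjusted p = 0.134), and Sdc2 had 188, 164 and 264 CPM in controls and 45.3, 94.8 and 129 CPM with Tig1P155A (adjusted p = 0.073). Cdh6, a cadherin of mesenchymal condensations, fell from 101, 135 and 150.5 CPM to 21.2, 33.3 and 20.1 CPM (log2 fold change −2.37, SE 0.60, adjusted p = 0.0107) and was not called without Tig1P155A replicate 3 (adjusted p = 0.0716). Cdh1, the epithelial cadherin, was set by single libraries, with 4.39, 0.769 and 0 CPM in controls and 80.3, 11.9 and 0 CPM with Tig1P155A (adjusted p = 0.173).

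Guidance molecules also held large rises. Sema4a, a membrane semaphorin of immune cells, had 2.03, 1.98 and 3.03 CPM in control cells and 125, 134 and 175 CPM with Tig1P155A (log2 fold change 5.94, SE 0.42, adjusted p = 4.52e-08). Its relatives Sema4b and Sema4d and the receptors Plxnc1, Plxna4 and Plxnd1 rose too, Plxnc1 from 1.05, 0.275 and 1.03 CPM to 172, 117 and 138 CPM (log2 fold change 7.45, SE 0.62, adjusted p = 1.71e-07) and Plxna4 from 3.7, 2.69 and 1.29 CPM to 133, 148 and 162 CPM (log2 fold change 5.84, SE 0.58, adjusted p = 8.6e-07). Of the 46 genes tested 6 rose, 13.04%, between the 10.6% of all genes and the 17.8% of genes of at least 4 CPM. The 3 that fell were Efna5, Robo1 and Unc5b (6.52%, against 1.72% of all genes and 3.29% of genes of at least 4 CPM). The falls numbered 1 without Tig1P155A replicate 3 and 2 without control replicate 2 or 3. The rises numbered 4 to 5 with 1 library left out. Sema4d overlapped between the groups (adjusted p = 0.0491), and Sema4b averaged 2.44 CPM over the 6 libraries (adjusted p = 0.019). Levels lay below every control in 30, against 17% of all genes. Epha7, a receptor for ephrins, overlapped between the groups at 4.42, 4.34 and 6.13 CPM in controls and 4.59, 2.89 and 0.73 CPM with Tig1P155A (adjusted p = 0.67). Rises among proteases and semaphorins, too, were measured in libraries with more myeloid marker counts, whose part was not tested.

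Genes of myeloid identity rose almost throughout: 27 of 28 tested, against 10.6% of all genes, with a median log2 fold change of 7.57 (7.42 with Vav1, at 0 in controls, set at its bound). Spi1, the master transcription factor of myeloid cells, had 0, 0.11 and 0.0369 CPM in control cells and 74.6, 31.4 and 26.9 CPM with Tig1P155A, 915-fold higher than the 3 counts in controls (95% counting interval 313 to 4442, adjusted p = 1.09e-06). The macrophage growth factor receptor Csf1r had 2.06, 0.659 and 2.77 CPM in controls and 299, 412 and 430.2 CPM with Tig1P155A (log2 fold change 7.68, SE 0.76, adjusted p = 8.94e-07). The scavenger receptor Marco rose from 4.65, 3.13 and 2.59 CPM to 1494, 1851 and 1684 CPM (log2 fold change 8.92, SE 1.28, adjusted p = 4.93e-05), and Cd68, a glycoprotein of macrophage lysosomes, from 4.16, 1.65 and 0.443 CPM to 769, 977 and 890.5 CPM (log2 fold change 8.71, SE 1.23, adjusted p = 4.34e-05). Ptprc, the pan-leukocyte phosphatase CD45, rose from 1.15, 1.32 and 2.51 CPM to 230.1, 304 and 359 CPM (log2 fold change 7.48, SE 1.05, adjusted p = 3.77e-05). Control levels of the genes just given were low, up to 4.65 CPM for Marco. In Tig1P155A cells all 28 genes of the list lay above every control library. The member not called was Fcer1g, with 2 counts in controls and 22 in Tig1P155A cells. The number called was 27 in each fit with 1 library left out, Tig1P155A replicate 1 included. Few markers of other blood cells could be tested: 2 of 12 neutrophil granule, 8 of 19 lymphocyte and 6 of 15 erythroid and thrombocyte genes. Most of the others were not found in the annotation. Azu1, a granule protein, rose to 3.1, 10.2 and 10.9 CPM from 0, 0.11 and 0.997 CPM (adjusted p = 0.0109), a call lost without control replicate 2 (adjusted p = 0.06). Bpi, the other granule gene tested, had no count in controls and 26 in Tig1P155A cells and was not called (adjusted p = 0.0814). Cd3e of T cells had 0.197, 0.0549 and 0.259 CPM in controls and 0.803, 0.368 and 2.19 CPM with Tig1P155A (adjusted p = 0.134). Cd247, a signalling chain of T and natural killer cells, was at least 222-fold higher than in controls, where it had no count. Of the 8 lymphocyte genes, Cd247 was the 1 called. Il7r and Tcf7 were lower and Gzma higher, all of them not called (adjusted p = 0.37, 0.659 and 0.28). Of the 6 erythroid and thrombocyte genes 0 rose and 1 fell. The gene that fell, Hba1, had 43 counts in controls and 0 in Tig1P155A cells, at least 10.2-fold lower (adjusted p = 0.0411). With any 1 library left out, 0 genes of that list were called.

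**Figure D4:**
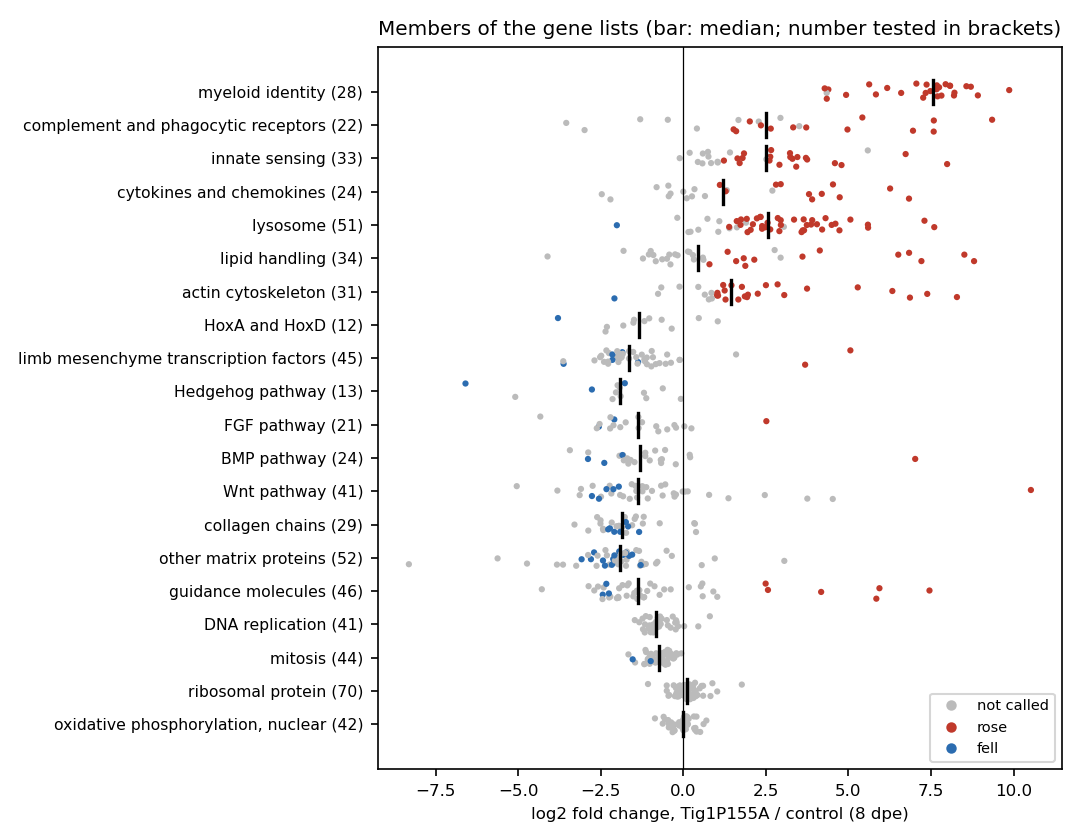
Fold changes (log2, Tig1P155A over control at 8 dpe) of the tested members of 20 gene lists, 1 point per gene, with the median of each list as a bar. Myeloid genes centre on 7.57 and lysosome genes on 2.55, collagen and other matrix genes on −1.85 and −1.91, and ribosomal protein and oxidative phosphorylation genes on 0.12 and −0.0028.

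Lysosomal genes followed, with 39 of 51 higher (76.5%, against 10.6% of all genes), 1 lower (the proton pump subunit Atp6v0a1, not called without Tig1P155A replicate 2) and a median of 2.55. The protease cathepsin B, Ctsb, had 176, 90.6 and 132 CPM in control cells and 1631, 3739 and 4327 CPM with Tig1P155A (log2 fold change 4.61, SE 0.43, adjusted p = 4.82e-07). Cathepsin D, Ctsd (MGC82347 in the annotation), rose from 72.7, 53.5 and 58.5 CPM to 549, 1744 and 1862 CPM (log2 fold change 4.49, SE 0.47, adjusted p = 1.51e-06), and Ctss, the cathepsin of antigen-presenting cells, from 1.18, 0.934 and 0.295 CPM to 102, 135 and 145 CPM (log2 fold change 7.30, SE 0.56, adjusted p = 9.52e-08). The list held 18 of 25 hydrolases and 21 of 26 membrane and pump genes that rose. Mitf, a transcription factor that drives lysosomal genes, rose from 1.51, 1.76 and 0.443 CPM to 54.01, 54.6 and 69.7 CPM (log2 fold change 5.59, SE 0.69, adjusted p = 9.12e-06), and its relatives Tfeb and Tfe3 rose with log2 fold changes of 3.66 and 3.35. Ctsb, Ctsd and Lamp1 were lowest among Tig1P155A libraries in replicate 1, the library with most mitochondrial counts, and without that library 41 of the 51 rose.

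Complement and phagocytic receptor genes rose in 13 of 22 cases (59.1%, against 10.6% of all genes) and fell in 0. C1qb, a subunit of the first complement component made by macrophages, had 9.47, 9.998 and 17.2 CPM in control cells and 1289, 2441 and 3288 CPM with Tig1P155A (log2 fold change 7.58, SE 1.08, adjusted p = 4.52e-05), whereas C3, the central complement protein, was low in both groups, at 1.9, 1.1 and 0.111 CPM in controls and 0.803, 0.473 and 0.0384 CPM with Tig1P155A (adjusted p = 0.554). Among phagocytic receptors 9 of 10 rose. Mertk, which binds apoptotic cells, had 1 count in the control group and 8.37, 1.47 and 2.23 CPM in Tig1P155A cells, 224-fold higher (95% counting interval 39.7 to 8912). In lipid handling 13 of 34 genes rose (38.2%) and 0 fell. Apoe, the lipoprotein component secreted by macrophages, had 86.1, 43.4 and 15.9 CPM in control cells and 5108, 8002 and 8403 CPM with Tig1P155A (log2 fold change 7.21, SE 0.85, adjusted p = 5.96e-06). Fabp1, a fatty acid binding protein typical of liver and gut, was spread over 38.4, 4.997 and 1.84 CPM in Tig1P155A cells against 2 counts in controls, 337-fold higher (95% counting interval 92.8 to 2791). Replicate 1 carried most of this signal, and the call held without it.

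Innate sensing genes rose in 20 of 33 cases (60.6%, against 10.6% of all genes) and fell in 0 (median 2.52). Tlr8, an endosomal receptor for single-stranded RNA, had 0.917, 0.165 and 0.849 CPM in control cells and 71.5, 184 and 256 CPM with Tig1P155A (log2 fold change 7.99, SE 1.09, adjusted p = 2.86e-05). Its relative Tlr7 rose from 1.34, 2.09 and 1.37 CPM to 144, 159 and 205 CPM (log2 fold change 6.73, SE 0.85, adjusted p = 1.28e-05). Among 24 cytokines, chemokines and their receptors 11 rose (45.8%), 3 of 9 ligands and 8 of 15 receptors, and 7 rose without control replicate 1. Il1b, the inflammatory interleukin, had 0.753, 2.31 and 0.813 CPM in control cells and 42.1, 153 and 96.5 CPM with Tig1P155A (log2 fold change 6.26, SE 0.71, adjusted p = 3.83e-06). Actin cytoskeleton genes rose in 22 of 31 cases (71.0%), and in 16 to 21 with 1 library left out. They were led by Myo1f, a myosin of leukocytes, with 0.0983, 0.11 and 0 CPM in controls and 20.2, 22.2 and 25.8 CPM with Tig1P155A (log2 fold change 8.28, SE 0.96, adjusted p = 4.71e-06), and by the integrin activator Fermt3. Its mesenchymal relative Fermt2 fell, a call lost with each Tig1P155A library left out. Among 27 stress and immediate early genes 4 rose, 14.8%, between the 10.6% of all genes and the 17.8% of genes of at least 4 CPM, with Hmox1, the haem-degrading enzyme, at 14.4, 6.43 and 4.36 CPM in controls and 249, 215 and 123 CPM with Tig1P155A (log2 fold change 4.54, SE 0.64, adjusted p = 4.07e-05). The rises of these lists were measured in the libraries whose myeloid markers summed to 5254 to 6716 CPM, and the part of those cells in each list was not tested.

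By fitted log2 fold change, the 10 largest rises among genes with a symbol, at least 4 CPM on average and no overlap between the groups were those of Sash3, Ptafr, Btla, Rnf213, C6h16orf54, Zdhhc2, Wnt8b, Edn2, Hytohe and Fcn1. Where controls had no count the fitted value is no measured fold, so the order among these genes is not one of measured ratios. Sash3, an adaptor of lymphoid and myeloid cells, had no count in controls and 36.8, 35.1 and 34.2 CPM in Tig1P155A cells, at least 884-fold higher (adjusted p = 6.03e-07). Ptafr, the receptor of platelet-activating factor, and Btla, an inhibitory receptor of immune cells, had none in controls either and were at least 807-fold and at least 725-fold higher. Fcn1, a pattern recognition lectin of monocytes, had 0.0983, 0 and 0 CPM in control cells and 12.3, 47.1 and 84.2 CPM with Tig1P155A, and was 1502-fold higher than 3 counts (95% counting interval 513 to 7285). Spread among Tig1P155A libraries was small for Sash3, Ptafr and Btla and wide for Fcn1.

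By the same rule the 10 largest falls were those of Cyp27b1, Shox2, Mustn1, Sall3, Aqp3, Mn1, Htra3, Atp10a, Mfap4 and Npr3. Mustn1, a small nuclear protein of the musculoskeletal system, fell from 37.8, 55.3 and 106 CPM to 6.08, 6.89 and 2.96 CPM (log2 fold change −3.65, SE 1.04, adjusted p = 0.0244). Mfap4, a microfibril protein, fell from 66.9, 53.9 and 303 CPM to 13.99, 16.9 and 19.2 CPM (log2 fold change −3.08, SE 0.87, adjusted p = 0.0229), with control replicate 3 far above the others, and without that library by 1.90 on the log2 scale (adjusted p = 0.198). Npr3, a clearance receptor for natriuretic peptides, fell from 15.9, 32.5 and 39.6 CPM to 1.61, 5.42 and 3.61 CPM (log2 fold change −3.03, SE 0.96, adjusted p = 0.0452). Of these 10, Shox2 was called in all 6 fits with 1 library left out, and the other 9 were each lost in at least 1 of them, with adjusted p up to 0.0577 for Atp10a and 0.198 for Mfap4. Leaving out any library of the 6 ended the call of at least 1. Among all list members, 149 of 178 rises but 18 of 62 falls were called in each of these 6 fits.

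Muscle genes split. Ttn, Myl1 and Tnni2, components of the contractile apparatus, were called higher, with most of their counts in Tig1P155A replicate 1. Ttn had 0.655, 0.165 and 0.997 CPM in control cells and 304, 9.89 and 1.58 CPM with Tig1P155A, and without that library its log2 fold change went from 7.38 to 3.18 (adjusted p = 0.332). Myl1 had 3.47, 0.879 and 0.628 CPM in controls and 204, 5.31 and 8.8 CPM with Tig1P155A and went from 5.42 to 2.07 (adjusted p = 0.451), and Tnni2, at 2.36, 1.7 and 1.66 CPM in controls and 174, 1.95 and 6.03 CPM with Tig1P155A, from 4.98 to 1.06 (adjusted p = 0.595). Of the 13 muscle genes 0 were called higher without it, 0 also without any of the 3 control libraries, and 5 without Tig1P155A replicate 2. Pax7, the transcription factor of muscle satellite cells, had 5.63, 0.769 and 7.46 CPM in controls and no count in Tig1P155A cells, at least 91.7-fold lower, and Mymk, a fusion protein of myoblasts, was at least 26.2-fold lower. The call of Pax7 was lost without Tig1P155A replicates 1, 2 or 3 or control replicates 1 or 3 (adjusted p = 0.0611 to 0.107), and leaving out any Tig1P155A library or control replicate 1 ended both calls. Epidermal genes had 0 of 14 calls (3 at an unadjusted p under 0.05, and 1 higher and 1 lower by DESeq2). Krt5, a basal keratin, was set by replicate 1 of each group, with 253, 7.31 and 0.813 CPM in controls and 83.6, 0.526 and 0 CPM with Tig1P155A (adjusted p = 0.677).

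Cell division genes were mostly lower, and most did not pass the test. Of 41 DNA replication genes 0 were called (16 at an unadjusted p under 0.05, and 10 called lower by DESeq2). Their median log2 fold change was −0.83, and 25 lay below every control library, against 17% of all genes. Pcna, the sliding clamp, had 491, 259 and 271 CPM in control cells and 135, 189 and 204 CPM with Tig1P155A (log2 fold change −0.95, SE 0.43, adjusted p = 0.175). Of 44 mitosis genes 2 fell, the condensin subunits Ncapg and Ncaph. That share of 4.55% was near the 3.29% of genes of at least 4 CPM and above the 1.72% of all genes. Ncapg fell from 56.1, 45.8 and 43.9 CPM to 14.2, 20.04 and 16.1 CPM (log2 fold change −1.53, SE 0.37, adjusted p = 0.00846) and held with each library left out, and Ncaph fell from 73.8, 57.6 and 50.6 CPM to 28.7, 31.3 and 31.8 CPM (log2 fold change −0.99, SE 0.29, adjusted p = 0.0318) and was lost without Tig1P155A replicates 1, 2 or 3 or control replicates 1 or 2 (adjusted p = 0.0688 to 0.136). Mki67, the proliferation marker, had 388, 391 and 402 CPM in controls and 304, 257 and 222 CPM with Tig1P155A (adjusted p = 0.13). Among 17 genes of G1 control 2 rose, 11.8%, between the 10.6% of all genes and the 17.8% of genes of at least 4 CPM. Rb1 (RB in the annotation), the retinoblastoma tumour suppressor, rose from 31.2, 36.9 and 27.1 CPM to 62.4, 96.5 and 101 CPM (log2 fold change 1.45, SE 0.26, adjusted p = 0.000642), though not with library size alone (adjusted p = 0.191). The cyclin Ccnd3 rose from 5.93, 8.29 and 9.79 CPM to 18.1, 21.9 and 18.7 CPM (log2 fold change 1.29, SE 0.36, adjusted p = 0.0228), a call lost without Tig1P155A replicates 2 or 3 or control replicates 1 or 2 (adjusted p = 0.0691 to 0.14). Ccnd1, the G1 cyclin of most dividing cells, had 301, 264 and 237 CPM in controls and 116, 193 and 168 CPM with Tig1P155A (adjusted p = 0.114).

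The ribosomal protein and oxidative phosphorylation lists held no calls with edgeR. Of 70 ribosomal protein genes 0 were called (0 at an unadjusted p under 0.05, 0 by DESeq2), and of 42 nuclear genes of oxidative phosphorylation 0 (2 at an unadjusted p under 0.05, 1 by DESeq2), with median log2 fold changes of 0.12 and −0.0028. Of 31 chromatin regulators 1 fell (3.23%, near the 3.29% of genes of at least 4 CPM), the histone deacetylase Hdac2, from 179, 132 and 127 CPM to 73.2, 78.9 and 80.2 CPM (log2 fold change −0.91, SE 0.26, adjusted p = 0.0241), a call lost without Tig1P155A replicates 1, 2 or 3 or control replicate 1 (adjusted p = 0.0764 to 0.115).

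The same form was compared with control cells at 3 dpe, in 6 other libraries. There 6768 genes were called, 26.7% of those tested, of which 3845 rose (15.2%) and 2923 fell (11.5%). With library size alone as the scaling that split turned, to 2391 rises and 3934 falls. Of the 2698 rises at 8 dpe, 2486 were rises at 3 dpe too, 92.1% of the list at 8 dpe and 64.7% of that at 3 dpe, and 0 were falls. Of the 437 falls at 8 dpe, 360 were also falls at 3 dpe, 82.4% of the list at 8 dpe and 12.3% of that at 3 dpe, and 1 was a rise. The 437 genes had a median log2 fold change of −1.86 at 8 and −2.48 at 3 dpe. Division genes fell in far larger number at 3 dpe, 32 of 41 for DNA replication and 37 of 44 for mitosis, and Pcna then had 28.7, 118 and 59.1 CPM in Tig1P155A and 765, 522 and 351 CPM in control cells. The difference between 8 and 3 dpe was called for 0 genes of either list, with 19 and 12 at an unadjusted p under 0.05.

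Tested directly, the effect of Tig1P155A differed between 8 and 3 dpe in 10 genes, 0.0394% of those tested (2318 at an unadjusted p under 0.05, and 346 called by DESeq2). The smallest p was that of Lgr6, a receptor for R-spondins. At 8 dpe it had 16.1, 17.6 and 10.7 CPM in control cells and 14.1, 16.4 and 7.68 CPM with Tig1P155A (log2 fold change −0.22). At 3 dpe it had 9.4, 9.76 and 16.2 CPM in control and 0.091, 0.096 and 0.051 CPM in Tig1P155A cells (log2 fold change −7.12), a difference between times of 6.90 (SE 0.84, adjusted p = 0.00418). Tmem176b, a membrane protein of myeloid cells, went the same way: its rise was 7.04 at 8 dpe, where controls held 1.41, 1.21 and 0.96 CPM, and 3.09 at 3 dpe, where they held 17.8, 21.4 and 16.3 CPM (difference 3.94, adjusted p = 0.00586). Aif1l, Maoa, Naaa, Mfsd1 and Smox rose at both times and rose less at 8 dpe. Maoa, a monoamine oxidase, rose by 1.73 at 8 and 4.28 at 3 dpe on the log2 scale (difference −2.55, adjusted p = 0.0118). Of the 10 genes, Lgr6 was called under every alternative that kept the threshold of adjusted p under 0.05. At adjusted p under 0.001, 0 genes were called. The number depended on single libraries: it was 1 without Tig1P155A replicate 2 or 3 of 8 dpe, 5 without replicate 1 of that group, 4 without Tig1P155A replicate 1 of 3 dpe, 3 and 4 without control replicates 2 and 3 of 8 dpe, and 24 and 23 without control replicates 1 and 3 of 3 dpe.

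**Figure D5:**
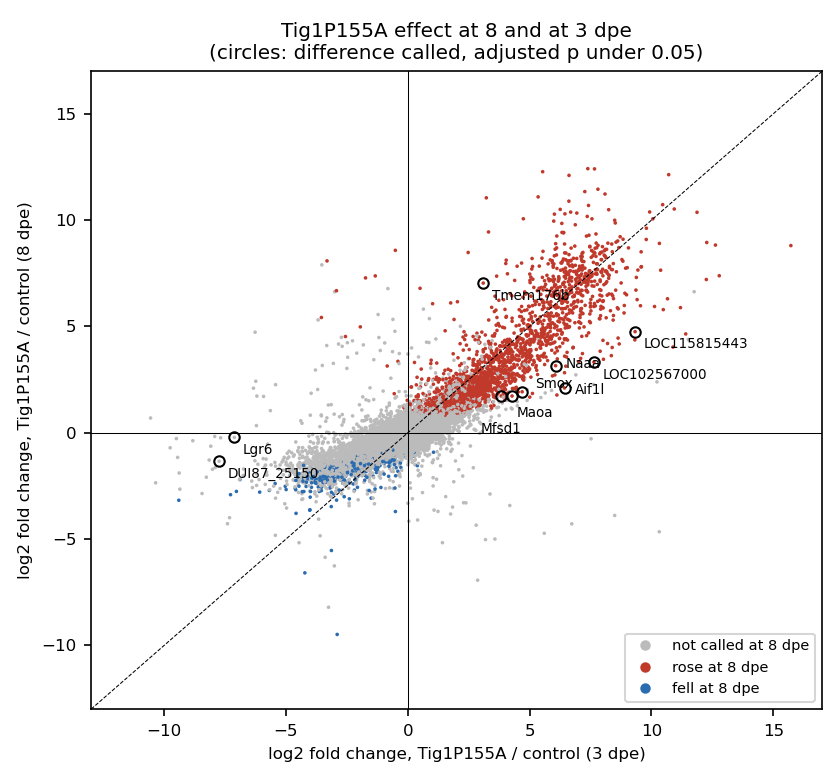
Fold change of Tig1P155A over control (log2) at 8 dpe against that at 3 dpe for 11451 genes of at least 4 CPM over the 12 libraries, coloured by the call at 8 dpe. Most genes that rose at 8 dpe also lie right of 0, and the circles mark the 10 genes whose effect differed between the times, with Lgr6 at −0.22 and −7.12.

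Against the wild-type form at the same time, Tig1P155A gave 0 called genes with edgeR (0%), with 1169 at an unadjusted p under 0.05 and 23 called by DESeq2. The smallest unadjusted p among named genes were those of Pbxip1, Shox2 and Mn1. Mn1, a transcriptional coactivator, had 0.573, 3.26 and 1.54 CPM in Tig1P155A and 18.8, 3.89 and 27.2 CPM in Tig1 cells (log2 difference −3.18, SE 1.01, unadjusted p = 0.00555), and Shox2 had 1.03, 0.21 and 0.192 and 9.68, 4.09 and 1.28 CPM (log2 difference −3.49, SE 0.97, unadjusted p = 0.00228). Both were lower with the mutated form in each library, and neither passed the adjusted test. Each form was set against the same 3 control libraries, so their changes are given only side by side: the median log2 fold change was 7.57 with Tig1P155A and 7.40 with Tig1 for myeloid genes, 2.55 and 2.54 for lysosomal genes, −1.91 and −1.50 for other matrix genes and −1.85 and −0.996 for collagens. For genes of at least 4 CPM the median SE of the difference between the forms was 0.43 on the log2 scale, and a difference had to be several times its SE to pass the adjusted test.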

How the data were processed

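Gene expression was measured by SMARTseq2 in 18 libraries (Tig1P155A, Tig1 and control cells at 3 and 8 dpe, n = 3 each). The deposited table holds raw counts per gene. Per the labels and methods, the authors demultiplexed reads with bcl2fastq 2.19.1, aligned them to the axolotl genome AmexG_v6.0-DD with STAR 2.7.6a and counted them with featureCounts 2.0.1. The strand setting is not given in the sources used here, so reads of overlapping and antisense genes cannot be told apart, and paralogs may share reads. Counts of 99126 gene models were used, 44224 of them with a count, and 92 rows of ERCC spike-ins were left out.

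The 25377 genes that reached 0.5 CPM in 1 or more libraries were tested with edgeR 4.0.16 in R 4.3.3 (quasi-likelihood test, two-sided, TMM scaling, Benjamini-Hochberg adjustment over all genes tested), in 1 fit of 6 group means over all 18 libraries with 12 residual degrees of freedom. CPM values use TMM-scaled library sizes. The difference between times was an interaction contrast. A gene without a count in a group was set against a floor of 3 counts over the group, and ratios to 1 to 3 counts have exact 95% intervals that cover counting error only. Bounds and ratios use TMM-scaled library sizes.

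Of 1168 members of 35 lists 985 were matched and 932 tested, 38 through names paired with identifiers in the study's tables. Of gene models with the same symbol, that with most counts on average stood for the gene. The comparison, lists and genes were chosen with earlier results of these data known. Named were genes the study discusses, the 10 largest rises and falls among named genes of at least 4 CPM without overlap, the leads and up to 3 called members of each list, the genes called for the difference between times, and the 3 smallest p between forms. Other called list members were named after their values were seen. Alternatives were another scaling (DESeq2 size factors, library size alone), filter, threshold, set of libraries or a replicate block, mitochondrial genes left out, DESeq2 1.42.0, and each library left out. Scripts were tested on simulated data. Figures were drawn with matplotlib 3.10.9 in Python 3.11.15. No nucleotide or protein sequence is shown.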

Additional observations from a re-analysis of the deposited data

Results flagged for a closer look

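The effect of Tig1P155A differed between 8 and 3 dpe in 10 genes by the test of the difference itself (edgeR, log2 fold change at 8 dpe minus that at 3 dpe). It was higher at 8 dpe for Lgr6 (6.90), DUI87_25150 (6.41) and Tmem176b (3.94). Lgr6 and DUI87_25150 were near or at the detection limit in Tig1P155A cells at 3 dpe, with 0.091, 0.096 and 0.051 CPM and 0, 0.048 and 0 CPM. It was lower at 8 dpe for LOC115815443 (−4.57), Aif1l (−4.33), LOC102567000 (−4.32), Naaa (−2.91), Smox (−2.77), Maoa (−2.55) and Mfsd1 (−2.10). All of these 7 were called higher at both times. Of 20 alternatives that kept adjusted p under 0.05, the difference was called in 20 for Lgr6, in 17 for Tmem176b and Aif1l and in 16 for Maoa. It was called in 12 for Naaa and LOC102567000, in 9 for DUI87_25150, in 7 for LOC115815443 and in 6 for Mfsd1 and Smox. No group had more than 3 libraries, so single libraries were not tested as outliers.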

How the results depend on the processing

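The 3135 genes called at 8 dpe stayed within 1.5 times under every alternative but the threshold: at adjusted p under 0.001, 1385 were called (1377 higher, 8 lower). Scaling by library size alone moved the median of all genes by −0.41 on the log2 scale and called 2112 (1640 higher, 472 lower), and DESeq2 called 4503. With 1 library left out, between 2307 and 2736 were called. At 3 dpe 2451 were called at adjusted p under 0.001 and 5260 to 6143 with 1 library left out. The difference between times was called for 0 genes at adjusted p under 0.001, 1 with library size alone, 694 with every gene of at least 1 count, 346 with DESeq2, 16 with only the groups compared and 1 to 24 with 1 library left out. Tig1P155A against Tig1 gave 226 genes with every gene of at least 1 count, 23 with DESeq2, and 0 to 0 with 1 library left out. Among called list members, falls in the other matrix list ranged from 2 at adjusted p under 0.001 to 37 with every gene of at least 1 count. The cause was not tested. With 1 library left out, the log2 fold change turned direction in 4 named genes, all of them not called: Lgr6 (−0.50 to 0.0047, without Tig1P155A replicate 3), Meis1 (−0.0586 to 3.25) and Meis2 (−0.0397 to 1.62), both without Tig1P155A replicate 1, and Krt5 (−8.47 to 2.72, without control replicate 1).

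Libraries share replicate numbers across groups. Residuals of Tig1P155A and control libraries of the same number at 8 dpe correlated at −0.25, −0.155 and 0.046, so the numbers were not taken to pair the libraries. With a replicate block, 2976 genes were called at 8 dpe, 6388 at 3 dpe, 7 for the difference between times and 0 between forms. The 300 cells per library limit what low genes can show. From read depth alone, a count of 0 allowed up to 0.344 CPM in the shallowest of the 6 libraries, and this bound does not cover the sampling of cells.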

Other observations

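Further called members of the lists had the following levels. Of the adhesion list 4 of 27 rose, among them Itga7, and 2 to 4 with 1 library left out. That share of 14.8% lay between the 10.6% of all genes and the 17.8% of genes of at least 4 CPM. Itga7, an integrin chain that binds laminin, had 0.753, 0.659 and 1.4 CPM in control cells and 11.6, 13.2 and 8.03 CPM with Tig1P155A (log2 fold change 3.53, SE 0.49, adjusted p = 3.9e-05). Of the stress list Sqstm1, the autophagy receptor p62, had 20.5, 19.3 and 29.8 CPM in control cells and 292, 146 and 97.7 CPM with Tig1P155A (log2 fold change 2.94, SE 0.38, adjusted p = 1.73e-05), all Tig1P155A libraries lying above the controls. Of the Schwann cell list Mbp, a myelin protein, had 0.36, 0.22 and 0.0369 CPM in control cells and 20.1, 4.68 and 6.65 CPM with Tig1P155A (log2 fold change 5.6, SE 1.14, adjusted p = 0.00174), whereas Pmp22, a myelin protein also made by fibroblasts, had 17.1, 50.7 and 36.1 CPM in control cells and 10.4, 11.2 and 6.53 CPM with Tig1P155A (log2 fold change −1.88, SE 0.54, adjusted p = 0.0262), a call lost without Tig1P155A replicates 1, 2 or 3 or control replicates 2 or 3 (adjusted p = 0.0533 to 0.147). Sox10, the defining factor of Schwann cells, had 1.74, 4.23 and 5.06 CPM in control cells and 3.78, 0.0526 and 0.461 CPM with Tig1P155A and was not called (adjusted p = 0.624). Of the endothelial list Robo4, a guidance receptor of endothelial cells, had 0.459, 1.87 and 0.148 CPM in control cells and 47.9, 89.2 and 98.9 CPM with Tig1P155A (log2 fold change 6.64, SE 0.72, adjusted p = 2.36e-06). The defining endothelial receptor Kdr had no count in Tig1P155A cells and 13 in controls, and was not called (adjusted p = 0.255). Of the lysosome list Atp6v0d2, a proton pump subunit of osteoclasts and macrophages, had 2.16, 0.659 and 0.332 CPM in control cells and 166, 218 and 242 CPM with Tig1P155A (log2 fold change 7.60, SE 0.97, adjusted p = 1.49e-05), without overlap.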
